A study of Rattus norvegicus with 10 samples.

Results

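The genes of the megalin-cubilin endocytosis machinery were followed in the renal cortex of PCK rats of both sexes. Members were the rows of the deposited expression table named *Lrp2*, *Cubn*, *Amn*, *Dab2*, *Clcn5*, *Ocrl*, *Ctns*, *Lrpap1* or *Rab11a*, which gave 9 of 32545 genes, and all 9 were among the 17631 genes tested. The PCK rat carries a spontaneous mutation of *Pkhd1* and is a model of autosomal recessive polycystic kidney disease (ARPKD). Both groups carried it, and no other strain was analysed here. RNA from snap-frozen cortex of 5 males and 5 females was sequenced, with 1 library per rat. The sample labels give an age of 12 to 14 weeks and the study's methods 10 to 12 weeks. The methods describe littermates from 2 litters with different parents. The labels and methods do not give the litter of each rat, so the tests took no account of litter.

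Cells of the proximal tubule take filtered proteins back from the urine. Megalin, encoded by *Lrp2*, is a very large receptor of the LDL receptor family on their apical membrane. Cubilin, encoded by *Cubn*, has no transmembrane domain and reaches the surface bound to amnionless, the product of *Amn*. The adaptor Dab2 links the receptors to clathrin, and the chaperone RAP (*Lrpap1*) keeps ligands off megalin in the endoplasmic reticulum. In the endosome, the chloride-proton exchanger ClC-5 (*Clcn5*) serves acidification, the phosphoinositide 5-phosphatase OCRL shapes membrane identity, and Rab11a returns receptors to the surface. Cystinosin (*Ctns*) exports cystine from the lysosome. Loss of the receptor, of ClC-5, of OCRL or of cystinosin in people leads to proteins in the urine or to wider proximal tubule failure.

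The region just before the gene start is shown for the receptor *Lrp2*, for *Cubn*, the member that differed most between the sexes, and for *Amn*, whose protein is the partner of cubilin. Sequences are from RefSeq on GRCr8, a later build than the Rnor_6.0 of the expression table, and run 5′ to 3′ on the gene's strand for 250 bases up to the start. They lie at chr3:74754536-74754785 (minus strand) for *Lrp2*, chr17:81501695-81501944 (minus strand) for *Cubn* and chr6:136132317-136132566 (plus strand) for *Amn*. Capitals mark the GC box GGGCGG and AGGTCA, part of a nuclear receptor element, searched on both strands.
Lrp2: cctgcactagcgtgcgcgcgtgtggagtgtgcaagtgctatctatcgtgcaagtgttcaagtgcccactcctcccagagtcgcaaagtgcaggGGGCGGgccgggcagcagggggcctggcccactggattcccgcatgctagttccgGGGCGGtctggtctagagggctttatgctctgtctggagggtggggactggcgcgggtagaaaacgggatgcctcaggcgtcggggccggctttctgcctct
Cubn: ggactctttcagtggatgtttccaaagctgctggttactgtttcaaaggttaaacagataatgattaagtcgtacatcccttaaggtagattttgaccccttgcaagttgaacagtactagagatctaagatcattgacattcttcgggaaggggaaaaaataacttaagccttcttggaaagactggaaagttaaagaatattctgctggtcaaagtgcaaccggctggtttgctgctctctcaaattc
Amn: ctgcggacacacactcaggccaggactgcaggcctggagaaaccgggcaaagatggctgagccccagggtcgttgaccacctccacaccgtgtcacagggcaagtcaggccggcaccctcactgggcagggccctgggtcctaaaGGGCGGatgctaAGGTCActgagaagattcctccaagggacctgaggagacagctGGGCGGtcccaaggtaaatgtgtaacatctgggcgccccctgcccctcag

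The window of *Cubn* was 40% G and C, against 64.4% for *Lrp2* and 62.8% for *Amn*. A GC box stood 157 and 102 bases before the start of *Lrp2* and 105 and 50 bases before that of *Amn*. RefSeq windows were matched for 8 of the 9 genes, all but *Ocrl*. A GC box was found in 6 of these 8 genes, the exceptions being *Cubn* and *Dab2*. It was in 30.47% of 33469 rat promoters of the same length, counted per window. *Clcn5* had a further window, which held no GC box. AGGTCA was found in *Amn* and *Ctns* (14.06% of all promoters). AGAACA, part of an androgen receptor element and not a complete one, was found in *Dab2* (17.52%). TATAAA, the E-box CACGTG and GTTAAT, part of an HNF1 element, were in none of the 8, against 12.93%, 5.593% and 6.454% of all promoters. These matches describe the letters in these windows and identify no binding site.

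Libraries held 13912569 to 20285911 reads on genes, and between 148 and 65373 reads per rat fell on each member. Values are FPKM, fragments per kilobase of gene length after a scaling between libraries, so levels of different genes can be set side by side. The library of male 5 stood apart in these genes. It had the lowest value among males in 7 of the 9, with a median of -0.55 on the log2 scale against the mean of the other males. Its summed FPKM of 12 proximal tubule markers was also the lowest among males (3076, others 3277 to 4275), and its summed macrophage (227) and injured tubule (7180) markers were the highest of all 10 rats. Female 2 had 26.8% of reads from mitochondrial genes, against 14.3% to 19.1% in the other 9 rats, and the lowest proximal tubule sum of all (2876). In bulk cortex, fewer cells of a type and less RNA per cell cannot be told apart.

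The levels of the 9 genes spanned from 222 FPKM for *Lrpap1* to 2.96 FPKM for *Ocrl*, as means over all 10 rats. *Dab2* (188 FPKM), *Lrp2* (183 FPKM) and *Amn* (129 FPKM) followed *Lrpap1*. *Cubn* (65.5 FPKM) and *Rab11a* (58.4 FPKM) formed the middle, and *Clcn5* (10.1 FPKM) and *Ctns* (8.35 FPKM) came before *Ocrl*. By sex, neighbours of this order changed places: *Rab11a* (54.3 FPKM) exceeded *Cubn* (49.98 FPKM) and *Dab2* (191 FPKM) exceeded *Lrpap1* (190.1 FPKM) in the male means, and *Lrp2* (197 FPKM) exceeded *Dab2* (184 FPKM) in the female means. Among the 17631 genes tested, *Lrpap1* ranked 311th and *Lrp2* 399th by mean FPKM, while *Ocrl* ranked 10960th. Neighbours in the order were compared within rats by an exact sign-flip permutation test, two-sided, adjusted over 8 pairs. *Lrpap1* and *Dab2* (adjusted p = 0.104), *Dab2* and *Lrp2* (adjusted p = 0.709), and *Cubn* and *Rab11a* (adjusted p = 0.444) did not differ beyond their spread. *Clcn5* exceeded *Ctns* in 9 of 10 rats (adjusted p = 0.0156). The other 4 pairs kept their order in 10 of 10 rats (adjusted p = 0.00391 for each). The mRNA of the receptor *Lrp2* thus stood above that of its coreceptor *Cubn* in every rat, as did that of *Amn*.

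**Figure D1:**
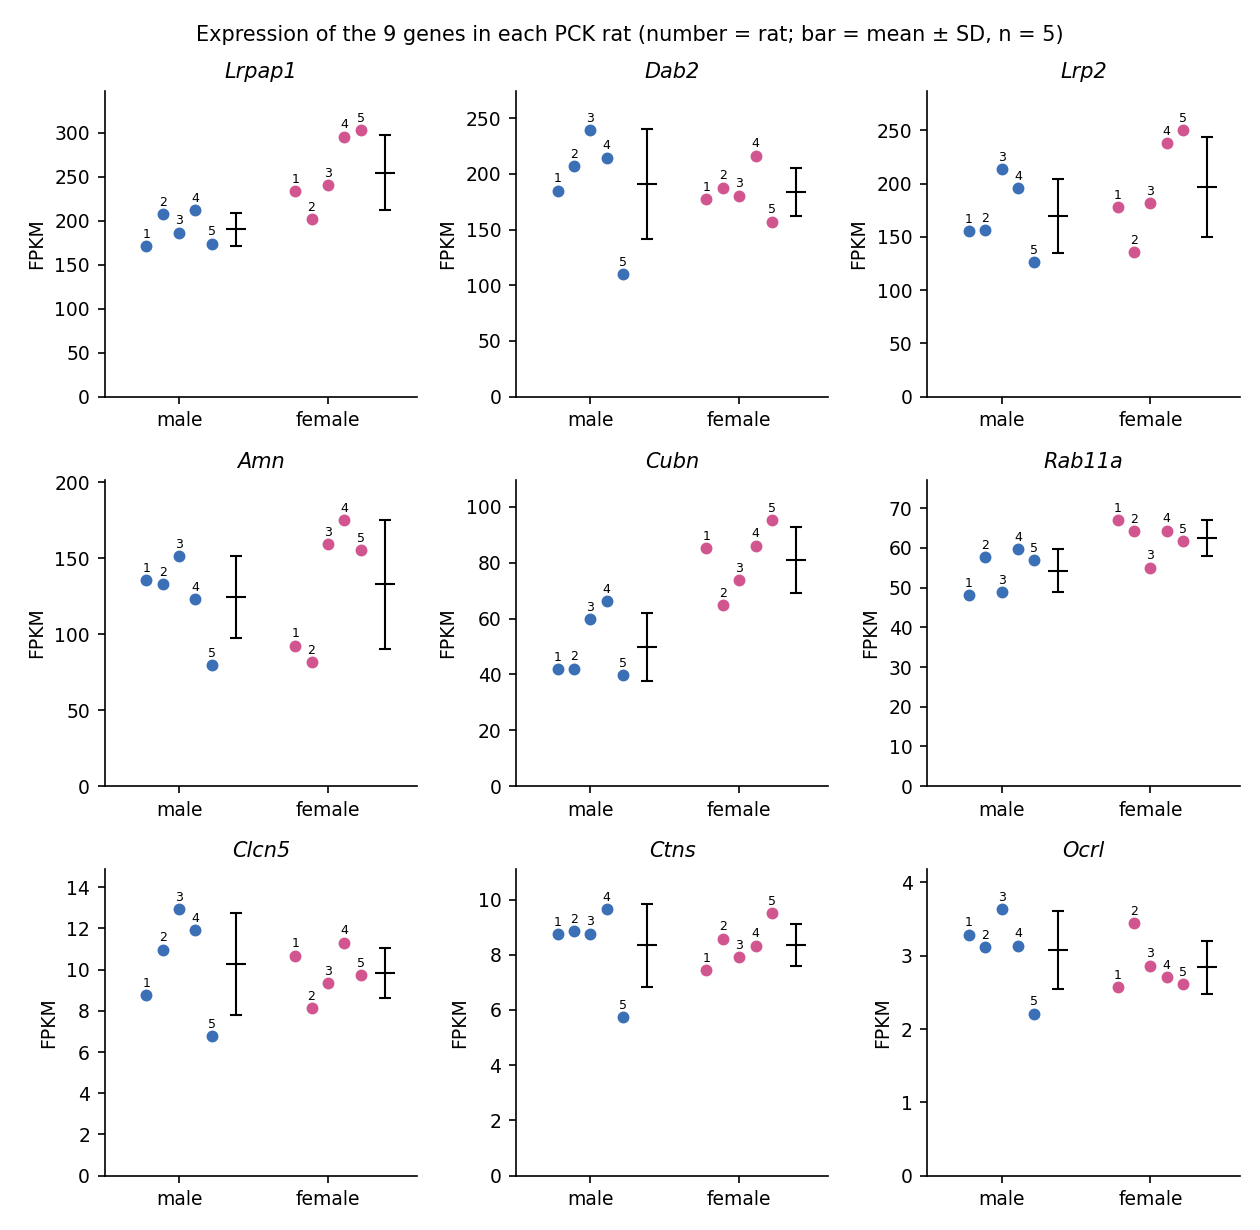
FPKM of each of the 9 genes (vertical axes, from 0) in each male and female rat, numbered 1 to 5, with the mean ± SD (n = 5 rats per sex) at the right of the points. *Cubn* lies between 39.8 and 66.3 FPKM among males and between 64.7 and 95.3 FPKM among females, while the sexes overlap widely in *Dab2*, *Amn*, *Clcn5* and *Ctns*.

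The question between the groups was whether these genes differ by sex. Exact permutation tests of mean FPKM or of mean log2 ratios compared 5 males with 5 females and were two-sided. For single genes the exact p was not adjusted over the 9 members. *Cubn* rose in females, to 1.62 times the male mean, and it was the only member called by limma, the call being a Benjamini-Hochberg adjusted p of 0.05 or less across all genes. That is 1 of 9 higher in females, where 1.26% of all genes tested were called higher and 2.40% were called in either direction. No member passed both the adjusted p and a 2-fold change, as 1.32% of all genes did. At this second threshold the count of 0 stood in every other setting of limma that was tried, limma-voom included, and 3 members (*Cubn*, *Lrpap1* and *Rab11a*) had an unadjusted limma p under 0.05, against 15.7% of all genes. None of the 9 had ranges that were separate between the sexes, against 5.10% of all genes. Of the 9 fitted changes, 6 lay above 0 and 3 below, with a median of 0.06 (log2) against -0.01 over all genes. This median rested on single rats, at -0.094 without male 5 and 0.19 without female 2, and was -0.017 with scaling by total reads, which moved that of all genes to -0.08.

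**Figure D2:**
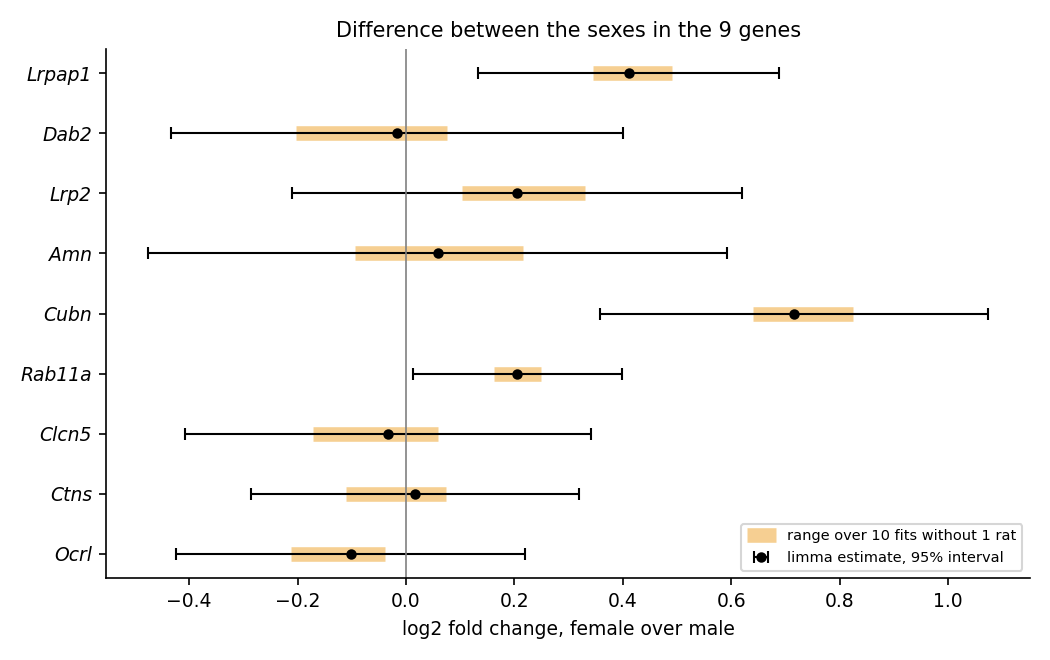
Log2 fold change of female over male for the 9 genes (horizontal axis), as the limma estimate on log2(FPKM + 0.1) with its 95% interval (black), and the range of the estimate when each of the 10 rats was left out in turn (orange). The intervals of *Cubn*, *Lrpap1* and *Rab11a* lie above 0 before any adjustment, and those of the other 6 genes include 0.

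Among the receptor genes, *Cubn* (ENSRNOG00000029047, chromosome 17: 80584878-80807243, minus strand, Rnor_6.0) had 42.0, 42.1, 59.7, 66.3 and 39.8 FPKM in males 1 to 5. It had 85.2, 64.7, 73.8, 86.1 and 95.3 FPKM in females 1 to 5. Only female 2 fell below the highest male, male 4. The means were 49.98 ± 12.2 FPKM in males and 81.0 ± 11.9 FPKM in females (SD, n = 5 each), and the difference exceeded the spread between rats (exact permutation p = 0.0159). The fitted log2 fold change was 0.72 with a standard error of 0.16 and a 95% interval of 0.36 to 1.07 (limma, adjusted p = 0.0467). This call was close to its threshold. It was lost on leaving out any one of males 1, 2, 3 and 5 or females 1, 3, 4 and 5 (adjusted p up to 0.122), while the log2 fold change stayed between 0.64 and 0.83 and the exact permutation p at 0.0238 or less. It was also lost with no filter on low values (limma adjusted p = 0.0626), with quantile normalization (0.0516), with scaling by total reads (0.0822) and without both male 5 and female 2 (0.0604).

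*Lrp2* (ENSRNOG00000056184, chromosome 3: 55665145-55822551, minus strand) had 156, 156, 214, 196 and 126 FPKM in males 1 to 5. In females 1 to 5 it had 178, 135, 181, 238 and 250 FPKM. The highest values were those of females 4 and 5, and the lowest those of male 5 and female 2, so that each sex covered most of the range of the other. The means were 169 ± 35.0 FPKM in males and 197 ± 47.1 FPKM in females (SD, n = 5 each), a difference within the spread between rats (exact permutation p = 0.325). Its log2 fold change of 0.20 had a 95% interval of -0.21 to 0.62, so a change of the size of that in *Cubn* was outside it but a smaller one was not. The estimate was 0.10 without male 5, 0.11 without female 5, 0.13 without female 4 and 0.33 without female 2, and 0.11 with quantile normalization.

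*Amn* (ENSRNOG00000009050, chromosome 6: 135724455-135731896, plus strand) had 136, 133, 151, 123 and 79.8 FPKM in males 1 to 5. In females it had 92.6, 81.7, 159, 175 and 155 FPKM. Males 1 to 4 lay together, whereas females fell into a low pair (females 1 and 2) and a high trio. The means of 125 ± 27.0 FPKM in males and 133 ± 42.6 FPKM in females (SD, n = 5 each) did not differ beyond that spread (exact permutation p = 0.730). Its interval was the widest of the 9, from -0.48 to 0.59 (log2).

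Ratios within a rat do not depend on how libraries were scaled against each other, and 6 were compared between the sexes. *Cubn* over *Lrp2* was 0.270, 0.270, 0.280, 0.339 and 0.316 in males 1 to 5, and 0.479, 0.478, 0.407, 0.362 and 0.382 in females 1 to 5. Every female lay above every male. The geometric mean ratio was 0.294 in males and 0.419 in females, a 1.42-fold difference (exact permutation p = 0.00794, the smallest that 5 against 5 allows, adjusted over 6 ratios p = 0.0238). The exact p stayed at 0.0159 or less on leaving out any one rat.

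*Cubn* was also set against the mean log2 level of 12 proximal tubule markers, among them the glucose transporter *Slc5a2* and the water channel *Aqp1*. This ratio was 0.153 to 0.273 in males and 0.277 to 0.436 in females, again without overlap (log2 difference 0.70, exact permutation p = 0.00794, adjusted p = 0.0238). *Lrp2* over the same markers was 0.569 to 0.859 in males and 0.765 to 0.954 in females, which overlap (exact permutation p = 0.159, adjusted p = 0.190). None of the 12 markers was called by limma at the adjusted p (8 lay above 0), and their summed FPKM was 3704 ± 506 in males and 3745 ± 805 in females (SD, n = 5 each, exact permutation p = 0.921). *Amn* over *Cubn* had a geometric mean of 2.49 in males and 1.58 in females and passed before adjustment only (exact permutation p = 0.0476, adjusted p = 0.0952). Its unadjusted exact permutation p rose above 0.05 without any one of males 1, 2 and 3 or females 1, 2 and 5 (up to 0.0952). Ratios of *Dab2* (exact permutation p = 0.325) and *Lrpap1* (exact permutation p = 0.159) to *Lrp2* did not differ beyond the spread between rats. The log2 difference in *Dab2* over *Lrp2* was -0.22, and it was -0.44 without male 5 and female 2, which had the lowest male and the highest female value of that ratio. The sexes were then separate, and the exact permutation p of 0.0286, the smallest for 4 against 4, follows from leaving out these 2 rats.

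**Figure D3:**
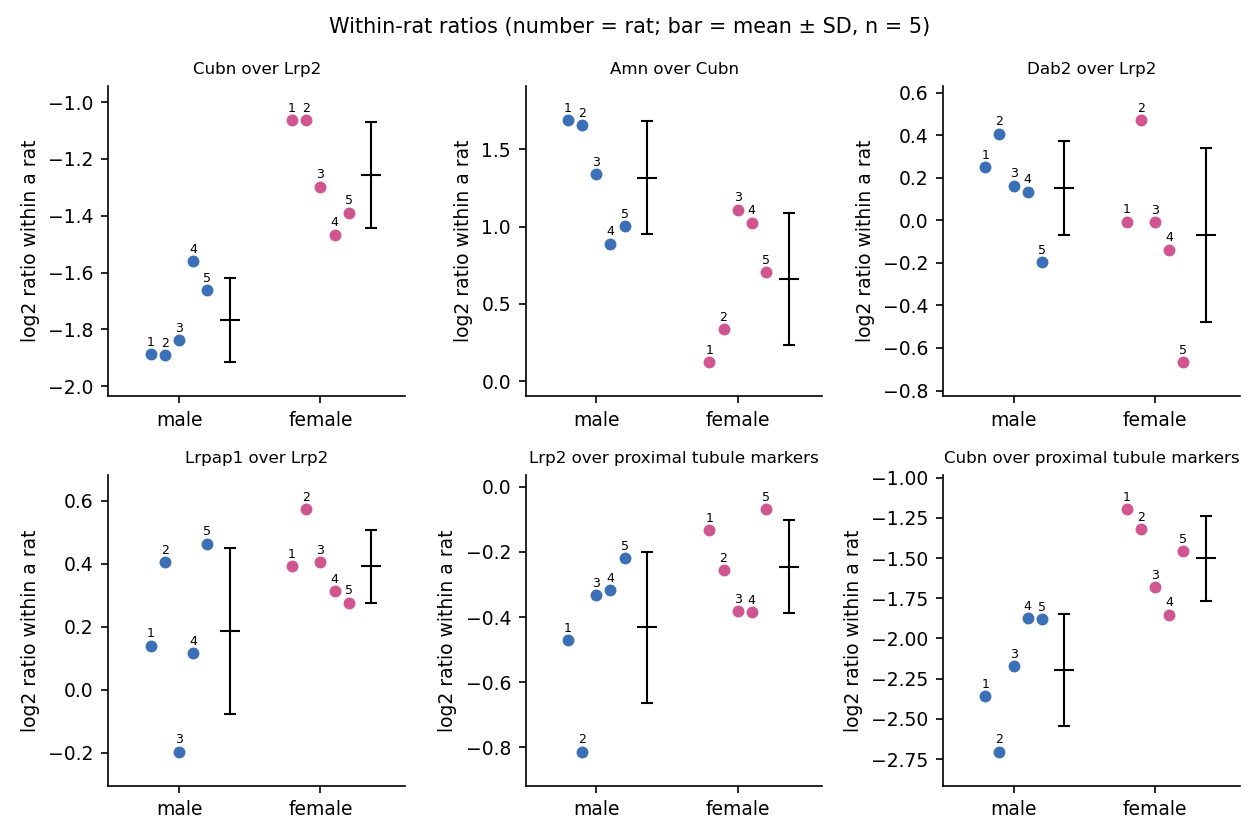
Log2 of 6 within-rat ratios (vertical axes, which do not start at 0) in each male and female rat, numbered 1 to 5, with the mean ± SD (n = 5 rats per sex). *Cubn* over *Lrp2* and *Cubn* over the proximal tubule markers are higher in every female than in every male, and the other 4 ratios overlap between the sexes.

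*Lrpap1* (ENSRNOG00000009313, chromosome 14: 80911270-80924831, plus strand), the chaperone of megalin, had 171, 207, 186, 212 and 174 FPKM in males 1 to 5. In females it had 234, 202, 240, 296 and 303 FPKM. All females but female 2 lay above all males. The means were 190.1 ± 18.7 FPKM in males and 255 ± 43.2 FPKM in females (SD, n = 5 each, exact permutation p = 0.0238). Over all genes the difference did not pass limma's adjustment (log2 fold change 0.41, standard error 0.13, adjusted p = 0.132), except without female 2 (adjusted p = 0.0468).

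*Dab2* (ENSRNOG00000028930, chromosome 2: 55747318-55768270, plus strand), the adaptor, had 185, 207, 239, 215 and 109.9 FPKM in males 1 to 5. In females it had 177, 188, 180.4, 217 and 157 FPKM. Male 5 was the lowest of all rats, and the other 4 males lay within or above the female range. The means were 191 ± 49.4 FPKM in males and 184 ± 21.5 FPKM in females (SD, n = 5 each, exact permutation p = 0.786), with a log2 interval of -0.43 to 0.40. Macrophages express *Dab2* as well, and their 6 markers summed to 151 ± 45.7 FPKM in males and 110 ± 36.6 FPKM in females (SD, n = 5 each). Their part in the *Dab2* values was not tested.

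Of the endosomal genes, *Rab11a* (ENSRNOG00000011302, chromosome 8: 70192975-70215719, minus strand) had 48.1, 57.6, 48.9, 59.7 and 57.0 FPKM in males 1 to 5. In females it had 67.1, 64.3, 55.0, 64.3 and 61.6 FPKM. Female 3 alone lay inside the male range. The means were 54.3 ± 5.35 FPKM in males and 62.5 ± 4.57 FPKM in females (SD, n = 5 each, exact permutation p = 0.0476). The difference did not pass limma's adjustment (log2 fold change 0.21, adjusted p = 0.285), and its exact p rose above 0.05 without any one of males 1 and 3 or females 1, 2, 4 and 5 (up to 0.0952).

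*Clcn5* (ENSRNOG00000002862, chromosome X: 16050780-16196789, plus strand) had 8.75, 11.0, 12.9, 11.9 and 6.77 FPKM in males 1 to 5. In females it had 10.7, 8.12, 9.35, 11.3 and 9.74 FPKM. The male values enclosed all the female ones. The means were 10.3 ± 2.49 FPKM in males and 9.84 ± 1.23 FPKM in females (SD, n = 5 each, exact permutation p = 0.762), and the log2 interval was -0.41 to 0.34. *Ocrl* (ENSRNOG00000003875, chromosome X: 134742356-134792618, plus strand), mutated in Lowe syndrome, had 3.29, 3.12, 3.63, 3.14 and 2.21 FPKM in males and 2.57, 3.45, 2.86, 2.71 and 2.61 FPKM in females 1 to 5. Male 5 was again the lowest and the other males overlapped only with female 2. Its means of 3.08 ± 0.527 FPKM in males and 2.84 ± 0.357 FPKM in females (SD, n = 5 each) did not differ beyond that spread (exact permutation p = 0.413). The difference of -0.237 FPKM, female minus male, was -0.454 FPKM without male 5 (exact permutation p = 0.0635). It was -0.606 FPKM without male 5 and female 2 (exact permutation p = 0.0286), a p that leaving out the 2 rats that made the sexes overlap fixes at the smallest for 4 against 4. Both genes lie on the X chromosome, where the median log2 fold change of 587 genes tested was -0.01.

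*Ctns* (ENSRNOG00000028688, chromosome 10: 59749721-59764819, minus strand), the lysosomal cystine exporter, had 8.73, 8.86, 8.77, 9.64 and 5.74 FPKM in males 1 to 5. In females it had 7.44, 8.58, 7.90, 8.32 and 9.50 FPKM. Males 1 to 4 lay within 1 FPKM of each other, far above male 5. The means were 8.35 ± 1.503 FPKM in males and 8.35 ± 0.776 FPKM in females (SD, n = 5 each, exact permutation p = 1), with a log2 interval of -0.29 to 0.32.

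Across rats, *Cubn*, *Amn*, *Lrpap1* and *Clcn5* moved with *Lrp2* at an adjusted permutation p under 0.05 by Pearson's r, though not by Spearman's rho. Over 10 rats, Pearson's r of log2(FPKM + 0.1) with *Lrp2* was 0.74 for *Cubn*, 0.78 for *Amn*, 0.75 for *Lrpap1* and 0.72 for *Clcn5*, each with an adjusted permutation p of 0.0389 over 8 relations. Spearman's rho for these genes was 0.77, 0.77, 0.73 and 0.71, with an adjusted permutation p of 0.0506 for the first 2 and 0.0525 for the others. Without male 5 and female 5, the rats farthest from the median of *Lrp2*, r was 0.53, 0.68, 0.56 and 0.77. After each sex's mean was subtracted, r was 0.86, 0.81, 0.81 and 0.78, and no value was computed within the 5 rats of a single sex. For *Ctns* (r = 0.56, rho = 0.47), *Dab2* (r = 0.47, rho = 0.36), *Rab11a* (r = 0.11, rho = 0.21) and *Ocrl* (r = 0.04, rho = -0.01) the adjusted permutation p was 0.136 to 0.914 for r. Without the 2 farthest rats, r was -0.02 for *Ctns*, 0.61 for *Dab2*, -0.0046 for *Rab11a* and -0.32 for *Ocrl*. The points share library and amount of proximal tubule RNA, which also varied between rats.

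Female 2 had the lowest female value in *Lrp2*, *Cubn*, *Amn*, *Lrpap1* and *Clcn5*, and the highest in *Ocrl*. Male 5 lay below the mean of the other males in 8 of the 9 genes, all but *Rab11a*. Its largest deviation from the mean of its sex was that of *Dab2*, -0.75 on the log2 scale.

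**Figure D4:**
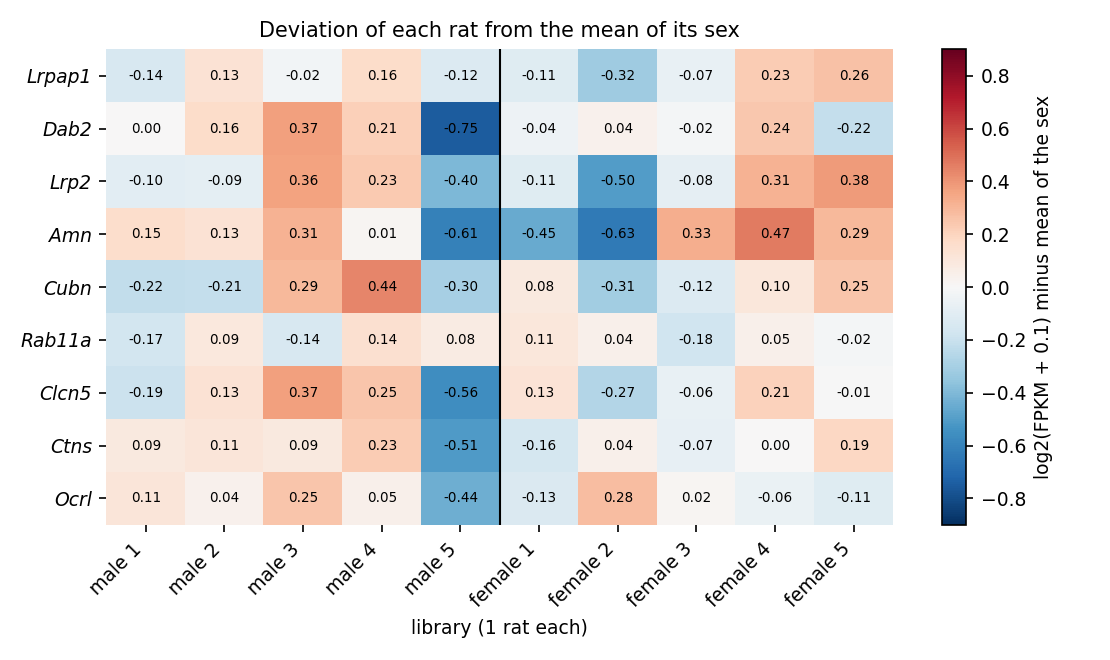
Deviation of each rat (columns) from the mean of its own sex on the log2(FPKM + 0.1) scale for each gene (rows), printed in each cell and shown from blue (below) to red (above). Male 5 is below its sex mean in all genes but *Rab11a*, and female 2 is lowest among females in *Lrp2*, *Cubn*, *Amn*, *Lrpap1* and *Clcn5*.

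The genes whose profile over the 10 rats was most like that of *Lrp2*, after each sex's mean was subtracted, were sought among 12044 genes with a symbol and a mean of at least 1 FPKM. Among the 5 most alike were *Aars* (r = 0.97), *Tmbim6* (r = 0.95), *Pard6b* (r = 0.95) and *Rpn2* (r = 0.95), and *Cubn* came in place 123. *Lrpap1*, *Amn* and *Clcn5* came in places 353, 399 and 565, and the remaining members in places 2144 (*Ctns*) to 7314 (*Rab11a*). For *Cubn* the most alike included *Ss18l1* (r = 0.96), *Dip2c* (r = 0.93) and *Kif21a* (r = 0.92), with *Lrp2* in place 34. These are descriptions over 10 libraries, with no test.

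In the wider pathway, 7 lists of 118 genes were counted, of which 117 rows were tested. At limma's adjusted p 3 genes were higher in females and 2 lower, which is 4.27% of the rows beside 2.40% of all genes tested. The 3 higher and the 4.27% include *Ttr*, which the filter on low values let in through the females alone. The other calls were *Ctsh* and *Fah*, higher in females, and *Gc* and *Apoh*, lower. The calls came from the lysosome (1), ligand (3) and inherited dysfunction (1) lists. Ranges were separate between the sexes in 10 rows, 6 higher in females, *Ttr* among them, and 4 lower. Over all genes tested, 5.10% had separate ranges. The median log2 fold change was -0.08 for 12 other endocytic receptors, -0.01 for 20 clathrin and adaptor genes and 0.01 for 29 genes of endosomal sorting and recycling. It was 0.08 for 16 genes of endosomal ion transport, 0.01 for 21 lysosomal rows, -0.21 for 10 ligands and 0.09 for 9 other genes of inherited proximal tubule dysfunction, against -0.01 over all genes.

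The folate receptor *Folr1* (338 ± 28.0 FPKM in males, 327 ± 75.3 FPKM in females, limma adjusted p = 0.866) and the neonatal Fc receptor *Fcgrt* (95.5 ± 9.70 and 88.3 ± 17.6 FPKM, adjusted p = 0.722) had the highest levels of the other receptors. *Lrp1*, a receptor of the same family as megalin, ranged from 5.67 to 8.66 FPKM among males and from 2.58 to 5.36 FPKM among females, which are separate, without passing limma's adjustment (log2 fold change -0.64, adjusted p = 0.126). It was chosen after its values were seen, for its separate ranges. The clathrin light chain *Clta* ranged from 188 to 217 FPKM among males and from 235 to 307 FPKM among females, which are separate, but missed the adjusted threshold (log2 fold change 0.36, limma adjusted p = 0.0722) and passed it without female 2 (adjusted p = 0.0315) and without both male 5 and female 2 (adjusted p = 0.0462). *Ap2m1*, a subunit of the adaptor AP-2 with the next highest level there, was 176 ± 8.47 FPKM in males and 176 ± 13.2 FPKM in females (adjusted p = 0.997). The early endosome gene *Rab5c* (adjusted p = 0.754) and the Rab11 effector *Rab11fip3* (adjusted p = 0.447) did not pass the test. Of the proton pump subunits, *Atp6v1e1* ranged from 111 to 130.1 FPKM among males and from 139 to 175 FPKM among females (limma adjusted p = 0.0903), and *Atp6v0d1* was 174 ± 15.3 and 206 ± 25.5 FPKM (adjusted p = 0.300).

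In the lysosome, the protease *Ctsh* rose from a male mean of 647 ± 78.0 FPKM to a female mean of 1024 ± 146 FPKM (SD, n = 5 each, log2 fold change 0.66, limma adjusted p = 0.0412), with no overlap between the sexes. *Ctsl*, the most abundant gene of that list, was 1395 ± 106 FPKM in males and 1943 ± 349 FPKM in females (adjusted p = 0.197), and *Ctsb* was 1039 ± 226 and 1367 ± 357 FPKM (adjusted p = 0.453). Among the genes of inherited tubule dysfunction, the tyrosine pathway enzyme *Fah* rose from 113 ± 13.5 to 187 ± 44.9 FPKM (log2 fold change 0.70, limma adjusted p = 0.0483), while the phosphate transporter *Slc34a1* (adjusted p = 0.974) did not pass the test. The call of *Ctsh* was lost without any one rat other than female 1 (adjusted p up to 0.109), and that of *Fah* without any one rat other than female 2 (adjusted p up to 0.117). With no filter on low values these were 0.0797 and 0.0657. *Ctsh* was also lost with quantile normalization (limma adjusted p = 0.0747) and without both male 5 and female 2 (0.0839), and *Fah* with a pseudocount of 1 (0.0505), robust eBayes (0.0514) and scaling by total reads (0.0690).

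Several ligands of the receptors are plasma proteins made mainly by the liver, and all 3 ligand genes called, *Ttr* among them, were of this kind. *Gc*, the vitamin D binding protein that megalin takes up, fell from a male mean of 11.4 ± 4.82 FPKM to a female mean of 0.499 ± 0.340 FPKM (SD, n = 5 each, log2 fold change -4.29, limma adjusted p = 9.14e-05), on 157 to 650 reads in males and 8 to 33 reads in females. *Apoh* fell from 3.82 ± 1.39 to 0.615 ± 0.393 FPKM (log2 fold change -2.62, limma adjusted p = 0.0109), on 38 to 133 and 3 to 21 reads, with an adjusted p of 0.0502 without both male 5 and female 2. *Ttr*, transthyretin, had 0 reads in every male, which allows up to 3 reads per library, and 1 to 12 reads in females. It passed the filter on low values through the females alone. Its call stands in the counts of calls and of separate ranges but is given no other weight here. *Apoe*, with 801 ± 77.9 FPKM in males and 582 ± 43.9 FPKM in females, had separate ranges and a limma adjusted p of 0.0636. It passed the threshold with a filter at 1 FPKM (adjusted p = 0.0427), quantile normalization (0.0434), robust eBayes (0.0491), limma-voom (0.0425), scaling by total reads (0.0266), without female 2 (0.0451) and without both male 5 and female 2 (0.0340). *Cst3* was 714 ± 94.8 FPKM in males and 856 ± 293 FPKM in females (adjusted p = 0.665), and its log2 fold change of 0.22 was 0.032 without female 2.

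**Figure D5:**
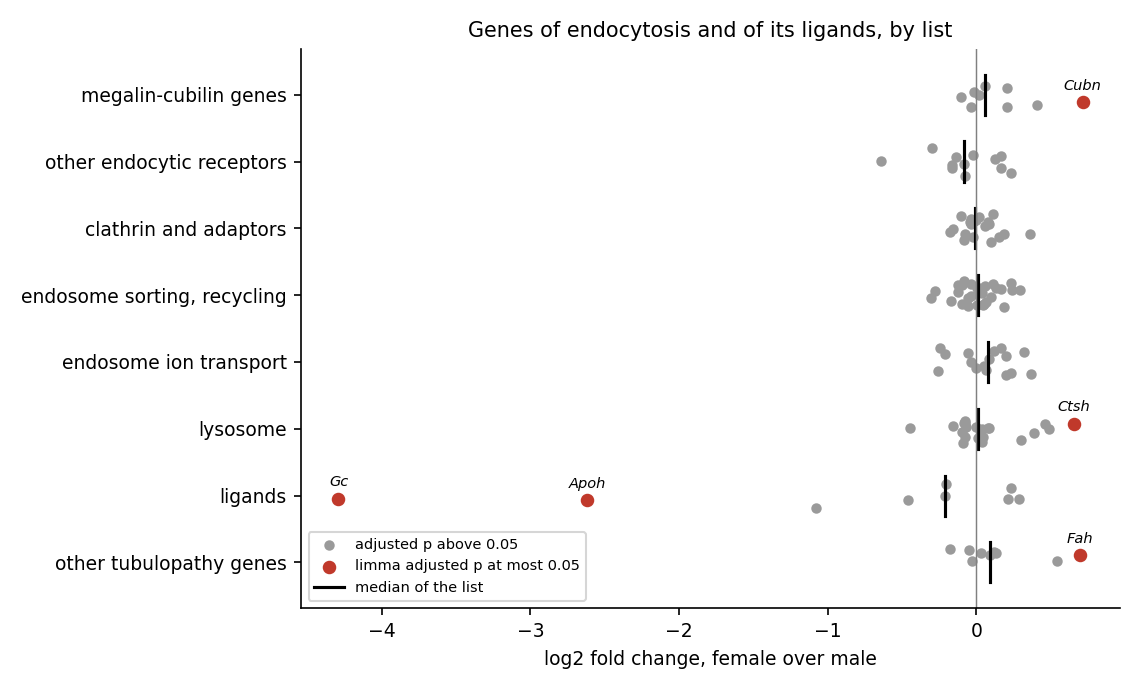
Log2 fold change of female over male (horizontal axis, limma on log2(FPKM + 0.1)) for the genes of each list (rows, points spread vertically for legibility), with the list's median as a black bar and genes at an adjusted p of at most 0.05 in red. *Cubn*, *Ctsh* and *Fah* lie to the right and *Gc* and *Apoh* to the left, while the medians lie between -0.21 and 0.09. *Ttr*, listed at 0 in all males, is counted in its list's median but has no point.

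Markers of other cell types moved with sex in these libraries. The summed FPKM of 5 fibroblast markers was 244 to 328 in males and 71.1 to 229 in females, and that of 5 intercalated cell markers was 147 to 226.8 in males and 227.1 to 347 in females (exact permutation p = 0.00794 for each). Of the fibroblast markers 0 of 5 lay above 0 and 1 was called lower by limma, and of the intercalated markers 5 of 5 lay above 0 and none was called at the adjusted p. Sums for the thick ascending limb, distal convoluted tubule and collecting duct principal cells had an exact permutation p of 0.0556 each. Of their tested markers 4 of 4, 2 of 2 and 5 of 5 lay above 0 (median log2 fold change 0.35, 0.42 and 0.44), and limma called 1 thick ascending limb and 1 principal cell marker higher. Sums for podocytes, endothelium, macrophages and injured tubule had an exact permutation p of 0.143 to 0.278. Of their tested markers 5 of 5, 5 of 6, 1 of 6 and 0 of 4 lay above 0 (median log2 fold change 0.27, 0.06, -0.47 and -0.94), and limma called none at the adjusted p. The parvalbumin gene *Pvalb*, a marker of the distal convoluted tubule, was at 0 in all libraries. The part of these cell types in the values of the 9 genes was not tested.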

How the data were processed

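RNA-seq of renal cortex from 5 male and 5 female PCK rats was analysed, grouped by the sex in the sample labels. Per the labels and the study's methods, the authors' provider mapped reads to Rnor_6.0 with HISAT2 2.0.5 and deposited FPKM values with each gene's length. StringTie 1.3.3b, featureCounts 1.5.0-p3 and fastp stand in the submitters' processing notes, and use of strand is not given in the sources used here. Dividing each FPKM by the worth of 1 read gave whole reads (within 0.001) for 100% of the values. The ratio of each library to the geometric mean library had a median of 1.01 in all 10, so the deposited values already carried such a scaling. No per-sample column was left out (0).

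limma 3.58.1 in R 4.3.3 (lmFit, eBayes with trend) was run on log2(FPKM + 0.1) over the 17631 genes whose mean was 0.1 FPKM or more, with Benjamini-Hochberg adjustment. The pseudocount understates changes of low genes. Single values had exact permutation tests over 252 regroupings (scipy 1.17.1, Python 3.11.15), and correlations 100000 permutations. The procedures were tested on simulated data. The labels name separate rats, and p-values measure the spread between them; read counts cover counting error only.

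Members and lists were chosen with earlier results of these data known. Named were all members, each list's genes at an adjusted p of at most 0.05 (at most 4) and its 2 highest, and the 5 genes most like *Lrp2* and *Cubn*. Some genes under this rule are not reported here. *Sorl1* was not analysed here, and *Alb* was below the filter. *Lcn2* is in the ligand and injured tubule lists and *Hnf4a* in the dysfunction and proximal tubule lists. Tiny RNAs overlapping *Lrp2*, *Clcn5* and *Rab11a* had at most 1 read in any library. Alternatives were other pseudocounts and filters, quantile and median-ratio scaling, a replicate block, robust eBayes, the omission of each rat and limma-voom on whole reads. Median-ratio scaling could change little, since its factor was 1.01 in all 10 libraries. Scaling by total reads and leaving out male 5 with female 2 were added after the data were seen.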

Additional observations from a re-analysis of the deposited data

Results flagged for a closer look

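In 30 groups of 5 values (9 genes and 6 ratios in each sex), 1 value stood apart from its group by more than Dixon's 95% limit of 0.71, where chance alone flags about 1 group in 20. *Ctns*, the gene of the lysosomal cystine exporter, was 5.74 FPKM in male 5, the next lowest male having 8.73 FPKM. This gap took up 0.767 of the range of the males. Male 5 also had the lowest proximal tubule marker sum among males (3076) and the highest macrophage marker sum (227), and the part of either in its *Ctns* value was not tested.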

How the results depend on the processing

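The count of 1 member called at the adjusted p became 0 with no filter on low values, with quantile normalization, with the replicate block, with scaling by total reads and without male 5 and female 2, and was 0 to 2 when 1 rat was left out (2, *Cubn* and *Lrpap1*, without female 2). *Cubn* kept its direction in all of these, with an adjusted p of 0.0409 (limma-voom) to 0.103 (replicate block) over the settings that kept all rats. The 5 pathway genes called became 3 with no filter and 2 with the replicate block (*Ctsh* with an adjusted p of 0.133, *Fah* 0.0937 and *Ttr* 0.0579), and were 3 to 7 when 1 rat was left out (3 without any one of males 1 to 5 or females 3, 4 and 5). Replicate numbers did not pair the rats: same-numbered rats had correlations of -0.159 to 0.156, and 1 of 10 libraries correlated best with its own number. The replicate block took the calls over all genes from 424 to 231.

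The *Amn* over *Cubn* log2 ratio difference was -0.65 without male 5 and female 2 (exact permutation p = 0.0857) and -0.77 to -0.52 without 1 rat, and that of *Dab2* over *Lrp2* was -0.44 without male 5 and female 2 (exact permutation p = 0.0286). The direction of small, uncalled changes turned. The log2 fold change of *Amn* was -0.023 with quantile normalization and -0.017 with scaling by total reads, which moved the median of all genes to -0.08. That of *Ctns* was -0.058 with total reads and -0.12 without male 5 and female 2, where its FPKM difference was -0.709. Without male 5 and female 2, those of *Fcgrt*, *Folr1*, *Ap2m1* and *Rab5c* were 0.044, 0.017, 0.022 and -0.015. Without 1 rat, log2 fold changes were -0.094 to 0.22 for *Amn*, -0.20 to 0.076 for *Dab2*, -0.17 to 0.059 for *Clcn5*, -0.11 to 0.074 for *Ctns*, -0.17 to 0.048 for *Folr1*, -0.033 to 0.033 for *Ap2m1* and -0.17 to 0.11 for *Slc34a1*. FPKM differences were then -2.90 to 21.1 for *Amn*, -27.6 to 4.65 for *Dab2*, -1.30 to 0.239 for *Clcn5* and -0.651 to 0.323 for *Ctns*. The cause of these changes was not tested. Depth limits *Ttr* most, at 12 reads or fewer per library.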
